A study of Macaca mulatta with 30 samples.

Results

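Gene expression in the pancreas was compared with gene expression in the liver of 6 rhesus macaques (Macaca mulatta). The comparison used the 6 pancreas and 6 liver libraries, chosen by the tissue code in the library name, which are 12 of the 30 libraries of the series. The other 18 came from 3 salivary glands. The study asked where amylase genes are expressed, and pancreas against liver within each animal is among the contrasts its design names. Both organs came from the same animals, of which 1 to 4 were female and 5 and 6 male. The labels give 1 flash-frozen piece of each organ per animal and name no treatment, genotype or age, so the libraries hold RNA from every cell type in the sectioned piece.

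The pancreas is mainly an exocrine gland. Its acinar cells make zymogens and other digestive enzymes, store them in granules and release them into ducts, whose cells add bicarbonate and water. Scattered islets of endocrine cells secrete insulin, glucagon and somatostatin into the blood. Hepatocytes, the main cells of the liver, also secrete protein, but into the blood and without storing it in granules. They make albumin, clotting factors, complement and lipoproteins, and they carry out the urea cycle, glucose release, bile acid synthesis and the breakdown of drugs. The organs thus share a heavy load of secretory protein synthesis and differ in what they make.

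Levels are given in TPM, a transcript abundance scaled to transcript length and to the same fixed total in each library. Fold changes are differences of log2(TPM + 1), pancreas minus liver, from a limma model with tissue and animal, and a gene passed at a Benjamini-Hochberg adjusted p below 0.05. Of 11921 genes tested, 3664 passed (30.7%), of which 761 were higher in pancreas (6.38%) and 2903 lower (24.4%). The median log2 fold change over all genes tested was -0.43. Scaling the libraries by trimmed-mean factors brought that median to -0.01 and gave 4233 passing genes (35.5%), 1897 higher (15.9%) and 2336 lower (19.6%). All 761 higher genes were also higher under this scaling, as were 2332 of the 2903 lower genes on their side. The scaling shifted fold changes toward pancreas, so the higher genes were favoured to keep their calls. A gene found in 1 organ alone passed the filter only if all 6 libraries of that organ reached 1 TPM, so such genes had to differ, and the counts of list members are descriptions. Levels and fold changes below are as deposited unless the scaling is named.

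The labels were checked with marker genes. The sum of 7 pancreas markers was 271236 to 302855 TPM in the pancreas libraries of animals 1, 2, 3, 5 and 6 and 1535 to 3669 TPM in the 6 liver libraries. In the pancreas library of animal 4 it was 3749 TPM. The 7 liver markers summed to 28562 to 78416 TPM in liver and 347 to 689 TPM in pancreas, so the pancreas library of animal 4 lay just above the livers in the pancreas markers, and the liver markers separated all 12 libraries widely. The pancreas piece of animal 4 instead carried 24976 TPM of 14 adipocyte markers, against 42.4 to 2263 TPM in the other pancreas libraries. Its 10 red blood cell markers summed to 13988 TPM (others at most 474) and its 17 stellate cell and fibroblast markers to 5997 TPM (others at most 452). Without animal 4, 6539 genes passed (54.9%), 885 higher (7.42%) and 5654 lower (47.4%), around a median of -0.64. With the scaling and without animal 4, 4883 passed (41%), 2170 higher (18.2%) and 2713 lower (22.8%), around -0.04. The median standard deviation of log2(TPM + 1) across animals was 0.638 in pancreas and 0.401 in liver with all 6 animals, and 0.412 and 0.387 without animal 4.

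**Figure D1:**
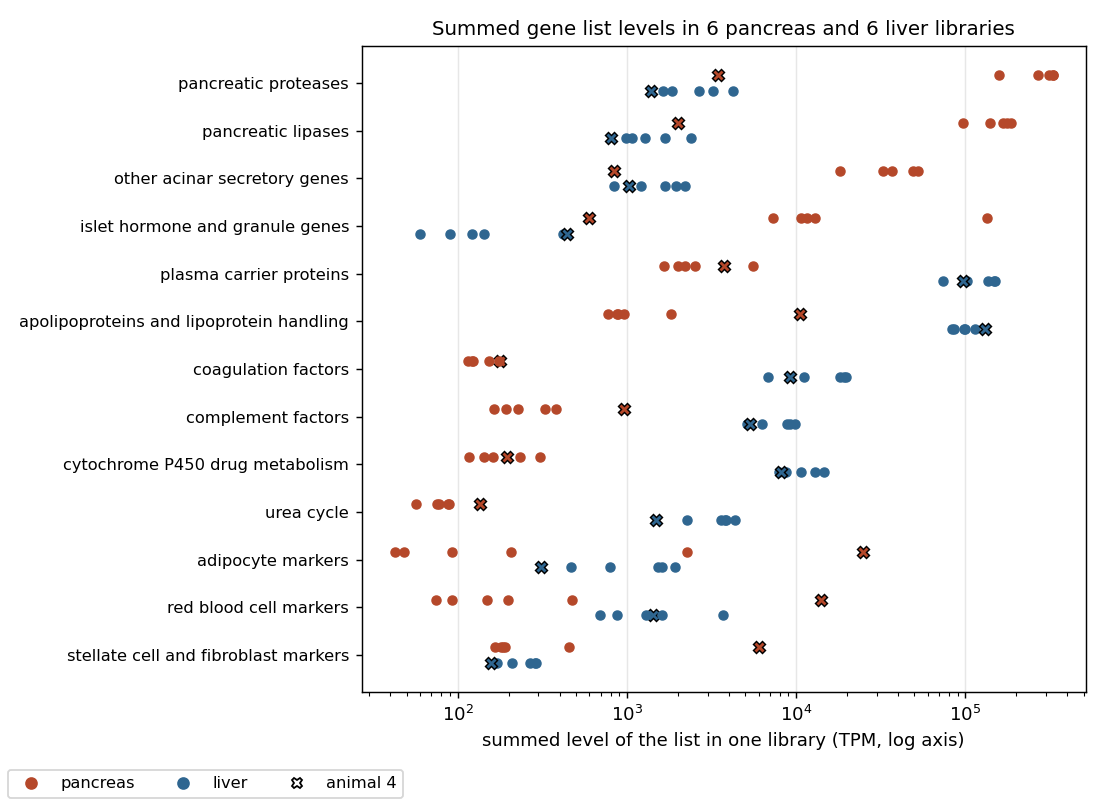
Summed level in TPM (log axis) of 13 gene lists in each library, pancreas in red and liver in blue, with animal 4 as a cross. The acinar lists of the pancreas library of animal 4 sit beside the liver libraries, at 3442 TPM for the proteases, while its adipocyte, red blood cell and fibroblast sums lie above those of all other libraries.

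The proteases that digest dietary protein were the most abundant pancreatic products. All 11 proteases in the table were tested and all 11 rose, with a median log2 fold change of 5.62. PRSS1, cationic trypsinogen, which once activated switches on the other zymogens, was at 995, 87378 and 96195 TPM in pancreas (lowest, median, highest) and at 144, 595 and 976 TPM in liver. The lowest pancreas value belonged to animal 4 and lay just above the highest liver value. The log2 fold change of PRSS1 was 6.23 (SE 0.56, limma adjusted p = 6.05e-06), and 6.92 without animal 4. PRSS2, anionic trypsinogen, rose by 5.83 and CTRC, chymotrypsin C, which regulates trypsinogen activation, by 5.80. The elastases CELA1 and CELA3B rose by 6.05 and 5.74, and CPA1, the pancreatic carboxypeptidase A1, by 5.62. KLK1, tissue kallikrein, had the smallest difference of the list, from 47.2 ± 16 TPM in liver to 1537 ± 783 TPM in pancreas (SD, n = 6; log2 fold change 4.45). Together the 11 proteases took 15.8 to 32.7% of all TPM in the pancreas of the 5 other animals, 0.344% in that of animal 4 and 0.138 to 0.425% in liver.

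The lipases showed the same separation. All 5 that were tested rose, with a median of 5.74, and PNLIPRP3 and CLPSL1 of the list were below the filter of 1 TPM in at least 6 of the 12 libraries. CLPS, colipase, the cofactor that anchors lipase to fat droplets in the presence of bile salts, was at 1107, 67609 and 100414 TPM in pancreas and 422, 551 and 1139 TPM in liver. Its ranges overlapped only through animal 4, whose pancreas value of 1107 TPM was below the highest liver value. CLPS rose by 5.90 (SE 0.67, limma adjusted p = 4.45e-05). PNLIPRP2, a lipase that also splits galactolipids, rose by 6.06, the phospholipase PLA2G1B by 5.74 and pancreatic lipase PNLIP by 5.59. Without animal 4 these 4 differences were 6.80, 6.87, 6.64 and 6.50, and all 5 lipases and 11 proteases still passed.

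Of 16 tested members of the list of other acinar secretory genes, 12 rose, 1 fell and 3 did not pass, with a median of 5.04. The highest of them in pancreas were ZG16, a zymogen granule lectin, at 8578 ± 6396 TPM against 111 ± 59.9 TPM in liver, and SPINK1, the trypsin inhibitor that protects the gland, at 7390 ± 4024 TPM against 108 ± 43.5 TPM. PDIA2, a pancreas-enriched protein disulfide isomerase, rose by 5.93, CUZD1, a zymogen granule membrane protein, by 5.73, and GP2, the main granule membrane glycoprotein, by 5.64. The member that fell was GNMT, the glycine methyltransferase that buffers the methyl donor S-adenosylmethionine. It was at 8.08, 27 and 33.4 TPM in pancreas and at 318, 717 and 1021 TPM in liver, and fell by 4.78 on the log2 scale (SE 0.38, limma adjusted p = 2.36e-06). GATM, the first enzyme of creatine synthesis, did not pass, with 292 ± 243 TPM in pancreas against 337 ± 289 TPM in liver. RNASE1, pancreatic ribonuclease, did not pass either. Its highest pancreas value, 291 TPM, was in animal 4 and its pancreas median was 2.45 TPM. REG1A, a secreted lectin, was at 1.73 to 197 TPM in pancreas and at most 1.56 TPM in liver (log2 fold change 4.56).

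The amylase genes encode the enzyme that cuts starch. AMY2B was at 340, 17002, 1832, 139, 15001 and 7425 TPM in the pancreas of animals 1 to 6 and at 76.2, 113, 123, 156, 150 and 155 TPM in the liver of the same animals. Pancreas exceeded liver in 5 of 6 animals, and animal 4 was the exception. With trimmed-mean scaling the limma log2 fold change was 4.77 (adjusted p = 0.00991). As deposited it was 4.21 (SE 0.83, adjusted p = 0.00243), and 5.09 (adjusted p = 1.28e-05) without animal 4. When the signs of the 6 differences were flipped in every way (exact permutation test, two-sided), p was 0.0625, where the smallest p that 6 animals allow is 0.031. LOC114669773, the next gene of the amylase neighbourhood in RefSeq assembly T2T-MMU8v2.0, was named after its values were seen. It was at 68433, 48591, 10661, 420, 10919 and 27849 TPM in pancreas and at 188 to 762 TPM in liver. In limma it rose by 4.84 (SE 0.70, adjusted p = 0.000285), higher in 6 of 6 animals, and the exact permutation p was 0.031, the smallest possible. In animal 4 the gap was small, with 420 TPM in pancreas against 349 TPM in liver. Without animal 4 the mean difference was 5.76 and the exact permutation p was 0.0625, the smallest that 5 animals allow. With trimmed-mean scaling LOC114669773 was higher in 5 of 6 animals and the exact permutation p was 0.0625. AMY2B made up 0.494% of the sum of this pair in the pancreas of animal 1, 25.9% in animal 2, 14.7% in animal 3, 24.8% in animal 4, 57.9% in animal 5 and 21.0% in animal 6. The balance between the pair thus differed between animals in which the summed level was high. The sequences of the pair were not compared here. How reads that match several copies were divided is not given in the sources used here, so each single value is uncertain. The further neighbour LOC713027 was at 139 to 517 TPM in pancreas and 220 to 544 TPM in liver and did not pass (-0.40, adjusted p = 0.434), and trimmed-mean scaling turned its sign (0.16).

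**Figure D2:**
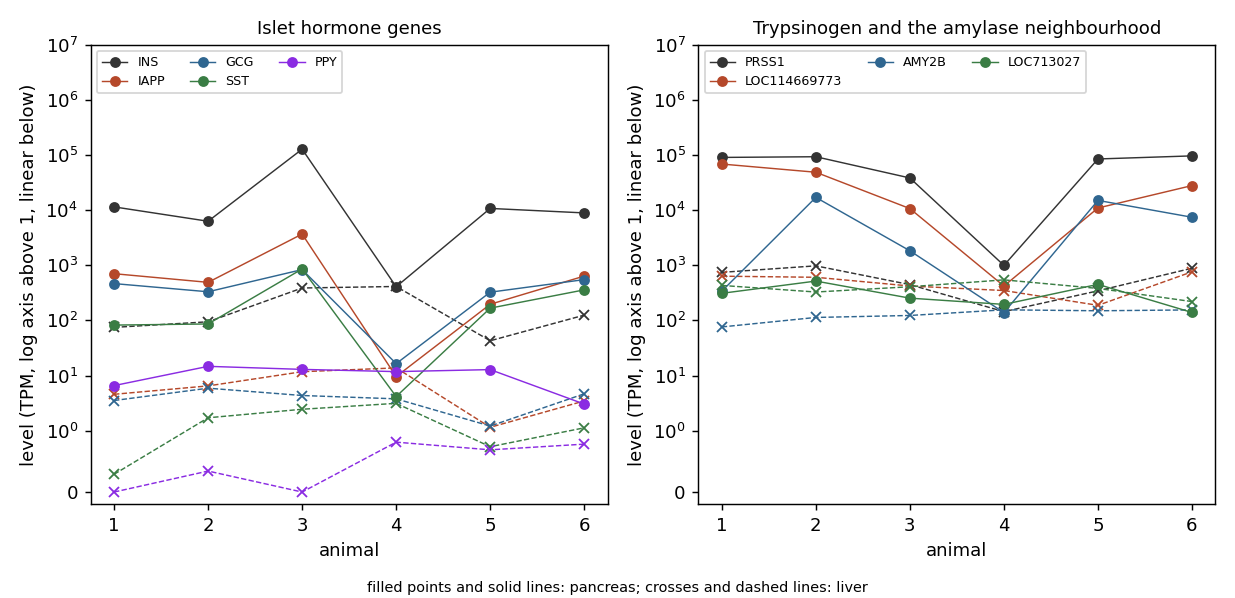
Level in TPM of 5 islet hormone genes (left) and of PRSS1, AMY2B and the amylase neighbours LOC114669773 and LOC713027 (right) by animal, on an axis that is logarithmic above 1 TPM and linear below, with pancreas as filled points and liver as crosses. INS peaks in the pancreas of animal 3 at 127239 TPM, and most pancreas values of animal 4 lie in or near the range of the liver values, except PPY at 11.8 TPM.

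The islet genes also separated the organs. Of 25 listed genes for islet hormones and their granules, 12 were tested, 10 rose and 2 did not pass, with a median of 3.16 (all 12 rose without animal 4). The other 13 were below the filter, and 12 of these had the higher mean in pancreas. INS, insulin, was at 408, 9812 and 127239 TPM in pancreas and 42.8, 110 and 413 TPM in liver. Its log2 fold change was 5.95 (SE 0.88, limma adjusted p = 0.000337), higher in 5 of 6 animals, and 7.14 without animal 4. GCG, glucagon, was at 16.5, 398 and 835 TPM in pancreas and 1.22, 4.07 and 5.91 TPM in liver. GCG rose by 5.87 in 6 of 6 animals (SE 0.63, limma adjusted p = 2.86e-05). SST, somatostatin, rose by 5.55 and IAPP, the amyloid polypeptide secreted with insulin, by 5.73. PPY, pancreatic polypeptide, was at 10.3 ± 4.51 TPM in pancreas against 0.438 ± 0.378 TPM in liver. It kept its level in animal 4 (11.8 TPM), unlike the other 4 hormone genes. PCSK1N, an inhibitor of prohormone convertase, rose by 4.17, and CPE, the carboxypeptidase that trims prohormones, by 3.10. ABCC8, the sulfonylurea receptor of the beta cell potassium channel, rose by 2.93, from 0.209 ± 0.164 TPM. Its partner KCNJ11 and the granule protein SCG3 did not pass (1.10, adjusted p = 0.0594, and 1.33, adjusted p = 0.0571), and both passed with trimmed-mean scaling (adjusted p = 0.0394 and 0.0307) and without animal 4 (0.000427 and 0.0119), SCG3 also without animal 5 (0.0183). CHGA and CHGB, the chromogranins of endocrine granules, were below the filter, at 4.82 ± 4.49 and 3.83 ± 5.36 TPM in pancreas and 0.0437 ± 0.0491 and 0.0451 ± 0.0318 TPM in liver.

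Animal 3 had the most endocrine RNA. The islet list took 13.3% of all TPM in its pancreas, against 0.731 to 1.29% in animals 1, 2, 5 and 6 and 0.0594% in animal 4. The ratio of INS to GCG was 152 in its pancreas and 16.2 to 33.0 in the other 5. The acinar lists took 27.3% of all TPM in that library and 49.5 to 54.6% in the pancreas of animals 1, 2, 5 and 6. In bulk tissue, more islet cells in the piece and more hormone RNA per cell cannot be told apart. The liver of animal 3 had 387 TPM of INS and that of animal 4 had 413 TPM, against 42.8 to 125 TPM in the other livers.

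Of 22 listed transcription factors of pancreatic cells, 12 were tested, with 5 higher, 2 lower and 5 not passing, and a median of 0.83. Without animal 4, 8 were higher and 2 lower (median 1.12), and with the scaling as well 9 were higher and 1 lower (median 1.81). RBPJL, the acinar partner of PTF1A in the complex that drives enzyme genes, was at 15.8, 656 and 1518 TPM in pancreas and 3.87, 5.81 and 6.95 TPM in liver. The ranges did not overlap, even with animal 4, and the log2 fold change was 5.95 (SE 0.70, limma adjusted p = 5.75e-05). BHLHA15 (MIST1), which organises the acinar secretory apparatus, rose by 3.93. PDX1, needed for pancreatic development and beta cell function, rose by 2.83, ISL1, an islet factor, by 1.77, and SOX9, a duct and progenitor factor, by 1.72. PTF1A itself was below the filter, because animal 4 was at 0.609 TPM. Its other pancreas values were 34.9 to 57.3 TPM and its liver values at most 0.905 TPM. ONECUT1, shared by liver and pancreas development, fell by 1.36 (limma adjusted p = 0.0219), but not with trimmed-mean scaling (-0.78, adjusted p = 0.231), without animal 1 (0.0658) or without animal 6 (0.0507). XBP1, which expands the endoplasmic reticulum of secretory cells, was at 418 ± 167 TPM in pancreas against 219 ± 95.1 TPM in liver and did not pass (0.88, adjusted p = 0.09). It passed with the scaling (1.44, adjusted p = 0.0251) and without animal 4 (1.06, adjusted p = 0.00774). NR5A2, which binds the promoters of acinar genes and, in liver, of bile acid genes, was at 10.4 ± 5.08 and 6.55 ± 2.02 TPM and did not pass (adjusted p = 0.492), but did without animal 4 (0.76, adjusted p = 0.0275).

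Of 15 duct genes tested, 7 rose and 8 did not pass, with a median of 1.23. Without animal 4, 7 rose and 1 fell, with a median of 0.49. SCTR, the secretin receptor that triggers bicarbonate release, was at 6.39, 75.3 and 191 TPM in pancreas and 1.04, 1.64 and 2.55 TPM in liver. The ranges did not overlap and SCTR rose by 4.40 (SE 0.53, limma adjusted p = 7.31e-05). The apical mucin MUC1 rose by 3.75, osteopontin SPP1 by 3.07 and the epithelial adhesion protein EPCAM by 2.43. The bicarbonate cotransporter SLC4A4 rose by 1.58. The chloride channel CFTR was below the filter, at 4.14 ± 2.28 TPM in pancreas against 0.166 ± 0.0549 TPM in liver. SCTR, SPP1 and EPCAM also stand in the list of bile duct markers, in which 4 of 8 tested genes rose and 4 did not pass.

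The machinery that both organs use for secretion differed little as a group in TPM as deposited. Of 54 genes of endoplasmic reticulum translocation and folding, 4 rose, 3 fell and 47 did not pass. Over all genes tested 6.38% rose and 24.4% fell, so falls were a smaller share of this list. The median was -0.12 as deposited and 0.42 with trimmed-mean scaling, so the sign of the group depended on the scaling. The medians of all genes tested were lower, at -0.43 and -0.01. With the scaling 9 rose and 3 fell, where 15.9% of all genes tested rose. With the scaling and without animal 4, 15 rose and 3 fell, where 18.2% of all genes rose. Quantile normalization, another scaling, gave 21 higher and 1 lower. Without animal 4 alone, 7 rose and 12 fell, where 7.42% of all genes rose and 47.4% fell. ERO1B, the oxidase isoform abundant in pancreas, rose by 2.05 (limma adjusted p = 0.00632), from 9.77 ± 2.62 to 56.1 ± 26.3 TPM. SSR4, of the translocon-associated complex, rose by 1.10 and the signal peptidase subunit SEC11C by 1.05. The chaperones HSP90B1 and PDIA3 and the isomerase PDIA4 fell by 1.59, 1.42 and 2.08. The calls of SSR4, SEC11C and PDIA3 needed all 5 animals other than animal 4: leaving out any of those gave adjusted p of 0.0683 to 0.134 for SSR4, 0.0549 to 0.111 for SEC11C and 0.0526 to 0.0785 for PDIA3. PDIA4 was at 8.6, 21.1 and 38.2 TPM in pancreas and 43.1, 104 and 138 TPM in liver, with no overlap. P4HB, a major isomerase of the compartment, did not pass, at 352 ± 129 and 418 ± 234 TPM. Of 36 genes of export from the endoplasmic reticulum to the Golgi, 3 rose and 3 fell as deposited, again a smaller share of falls than among all genes. Without animal 4, 9 fell, a smaller share than among all genes tested. Quantile normalization gave 11 higher and 1 lower. TMED6, a member of a family of cargo receptors, rose by 3.67 and its relative TMED3 by 2.41, with CREB3L1, a stress transducer, at 1.41. The falls as deposited were SAR1B, the coat GTPase needed for very large lipoprotein cargo (-1.93), YIF1A (-1.23) and SEC16A (-1.11). SEC16A did not pass with trimmed-mean scaling (-0.61, adjusted p = 0.067) or without animal 5 (0.0591), nor did YIF1A without animal 2, 5 or 6 (0.0686 to 0.0736).

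Genes of stimulated secretion were compared next. Of 17 tested receptors, calcium channels and exocytosis genes, 7 rose, 4 fell and 6 did not pass. Over all genes tested 6.38% rose and 24.4% fell, so the share of the list that fell was near that of all genes. RAB3D, a GTPase of zymogen granules, was at 8.61, 25 and 44 TPM in pancreas and 1.86, 2.3 and 5.74 TPM in liver, and rose by 2.58 (SE 0.34, limma adjusted p = 0.000143). RAB26, another granule GTPase, rose by 2.00, and the calcium channel TRPV6 by 2.04. The VIP receptor VIPR1 fell by 2.32, the store-operated channel ORAI1 by 1.94, the calcium release channel ITPR2 by 1.37 and the granule SNARE VAMP8 by 0.94. VAMP8 no longer passed with the scaling (-0.38, adjusted p = 0.395) or without any of animals 1, 2, 3, 5 and 6 (0.0624 to 0.188). CCKAR and CHRM3, the cholecystokinin and muscarinic receptors through which acinar cells are known to be stimulated in several mammals, were below the filter. CCKAR was at 0 to 0.617 TPM in pancreas and 0 to 0.47 TPM in liver.

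**Figure D3:**
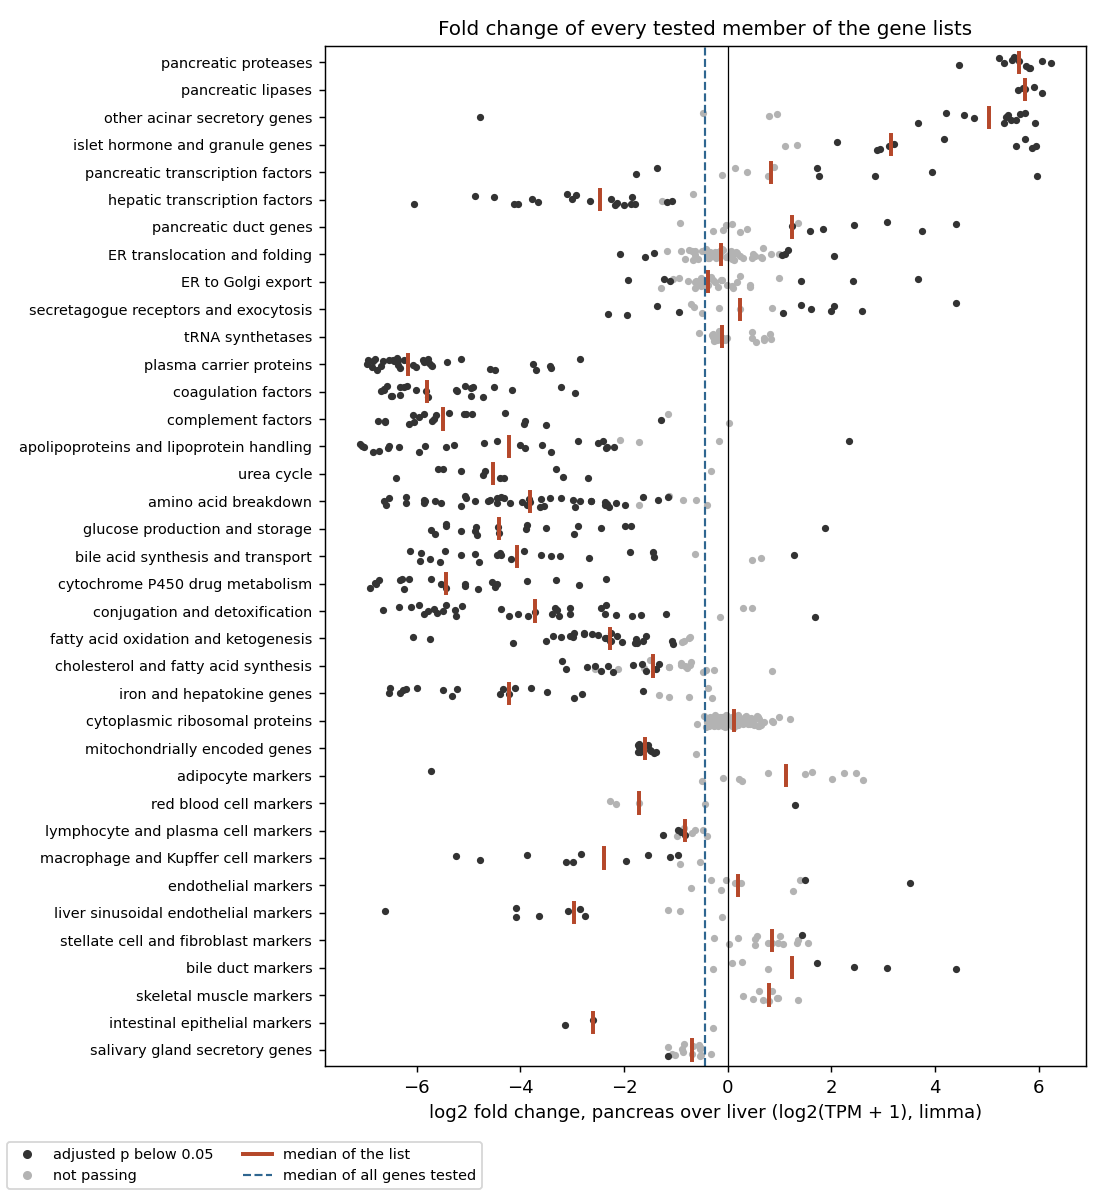
Log2 fold change (pancreas over liver) of each tested member of the 37 gene lists, dark where adjusted p was below 0.05, with the median of each list as a red bar and the median of all genes (-0.43) as a dashed line. Acinar medians lie between 5.04 and 5.74, plasma protein and cytochrome P450 medians between -6.16 and -4.23, and the ribosomal and endoplasmic reticulum medians at 0.12 and -0.12.

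On the liver side, the proteins that hepatocytes release into plasma had the largest falls. All 34 plasma carrier and acute phase genes fell, with a median of -6.16. ALB, albumin, was at 172, 304 and 431 TPM in pancreas and 11506, 27755 and 46181 TPM in liver, and its log2 fold change was -6.46 (SE 0.36, limma adjusted p = 1.77e-07). HP, haptoglobin, which binds free haemoglobin, fell by 6.86, AMBP, the precursor of alpha-1-microglobulin, by 6.93, and A1BG, a plasma glycoprotein, by 6.95. AOC1, diamine oxidase, which is in none of the lists, fell by 6.99, from 1450 ± 580 to 9.9 ± 2.79 TPM. The amyloid proteins SAA4 and APCS fell as well (-6.84 and -6.81). RBP4 and TTR, the retinol carrier and the thyroid hormone carrier bound to it, had highest pancreas values far above their pancreas medians. RBP4 was at 124, 163 and 2227 TPM in pancreas, highest in animal 4, and TTR at 142, 889 and 4425 TPM, highest in animal 3. TTR is also known as a product of islet cells. It fell by 3.75 (limma adjusted p = 0.000339), against 11358 ± 2049 TPM in liver. FETUB, fetuin-B, had the smallest fall of the list (-2.84).

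All 24 coagulation and fibrinolysis genes fell, with a median of -5.79. FGB, a fibrinogen chain, was at 26, 29.5 and 40.5 TPM in pancreas and 1296, 3474 and 4621 TPM in liver (-6.56, SE 0.37, limma adjusted p = 1.9e-07). The contact factor F12 fell by 6.68 and plasminogen PLG by 6.63. TFPI, an inhibitor of the clotting start that endothelium also makes, had the smallest fall (-2.95). Of 22 complement genes, 20 fell and 2 did not pass, with a median of -5.50. C8G and C9, of the terminal complex that pierces membranes, fell by 6.75 and 6.62. C3, the central component, was at 12.5, 15.9 and 172 TPM in pancreas, highest in animal 4, and 490 to 2417 TPM in liver (-5.66). C7, at 29.5 ± 44.1 and 16.4 ± 6.58 TPM, and FCN3 did not pass (0.02 and -1.16), and both were highest in the pancreas of animal 4, at 119 and 89.8 TPM. Without that animal FCN3 fell by 1.83 (limma adjusted p = 0.00106). C5 fell by 1.29 (limma adjusted p = 0.0317), but not with trimmed-mean scaling (-0.73, adjusted p = 0.0756) or without animal 1, 2 or 6 (0.103 to 0.118).

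Apolipoproteins, the protein part of lipoprotein particles, included the 3 largest falls among genes that averaged 100 TPM or more in the higher organ. APOA1, of high density lipoprotein, was at 64.6, 75.9 and 87.6 TPM in pancreas and 9133, 9744 and 14818 TPM in liver (-7.10, SE 0.31, limma adjusted p = 1.39e-07). APOC3, an inhibitor of triglyceride clearance, fell by 7.04 and APOA2 dropped by 7.01. APOC2, the activator of lipoprotein lipase, fell by 6.83. Of 28 genes in the list, 24 fell, 1 rose and 3 did not pass, with a median of -4.23. APOE and APOC1, which macrophages and adipocytes also express, were at 4796 and 3993 TPM in the pancreas of animal 4 and at most 450 and 617 TPM in the other 5. Their differences were -5.27 and -5.44 with all animals and -6.15 and -6.06 without animal 4. The gene that rose was APOD, a lipocalin of many tissues, at 11.3, 41.3 and 396 TPM in pancreas and 2.51, 9.99 and 26 TPM in liver (2.33, limma adjusted p = 0.00231, and 1.81 without animal 4).

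Nitrogen metabolism followed. Of 12 urea cycle genes, 11 fell, with a median of -4.53. ARG1, the arginase that releases urea, was at 4.02, 7.84 and 10.8 TPM in pancreas and 385, 737 and 1028 TPM in liver (-6.40, SE 0.39, limma adjusted p = 2.75e-07). The mitochondrial enzymes OTC and CPS1, which start the cycle, fell by 5.59 and 5.49. ARG2, the arginase of other tissues, did not pass, at 3.28 ± 1.22 and 4.61 ± 2.32 TPM. Of 49 genes of amino acid breakdown, 44 fell and 5 did not pass, with a median of -3.81. FTCD, of histidine breakdown, and HPD, of tyrosine breakdown, had differences of -6.58 and -6.53. MAT1A, which makes S-adenosylmethionine, was high in both organs. It was at 20.6, 517 and 1097 TPM in pancreas, lowest in animal 4, and 955, 1266 and 1695 TPM in liver. MAT1A did not pass with all animals (-1.71, limma adjusted p = 0.0503), and without animal 4 the difference was -0.96 (adjusted p = 0.00908). It also passed without animal 5 (adjusted p = 0.0443).

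Of 19 genes of glucose production and storage, 18 fell and 1 rose, with a median of -4.40. PCK1, which commits carbon to glucose synthesis, was at 5.71, 10.3 and 29.2 TPM in pancreas and 107, 932 and 1673 TPM in liver (-5.72, SE 0.62, limma adjusted p = 3.01e-05). G6PC, which releases free glucose, fell as well (-5.43). FBP2, the muscle form of fructose bisphosphatase, rose by 1.88, from 1.77 ± 0.451 to 11.1 ± 7.39 TPM (limma adjusted p = 0.00261, and 0.099 in a fit of all 30 libraries), while the liver form FBP1 fell by 4.82.

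Genes of bile acid synthesis and transport fell in 21 of 26 cases, with 1 higher, 4 not passing and a median of -4.05. The uptake transporters SLCO1B3, SLCO1B1 and SLC10A1 fell by 6.13, 5.94 and 5.74, and ABCB11, the bile salt export pump, by 4.44. CYP7A1, the rate-limiting enzyme of bile acid synthesis, was at 0.182 to 0.602 TPM in pancreas and 4.91, 9.16 and 91.1 TPM in liver (-3.61, SE 0.47, limma adjusted p = 0.000122), with no overlap. The gene that rose was ATP8B1, a lipid flippase of apical membranes in several epithelia, at 4.97 ± 1.85 against 1.41 ± 0.64 TPM (1.28).

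All 21 tested cytochrome P450 and partner genes, which oxidise drugs and steroids, fell, with a median of -5.43. CYP2E1, the ethanol-inducible form, was at 11.3, 18.5 and 26.5 TPM in pancreas and 1341, 1819 and 4075 TPM in liver (-6.80, SE 0.36, limma adjusted p = 1.5e-07). CYP2A24 and CYP2A23 fell by 6.90 and 6.79, and CYP3A4 by 6.24. CYP2C76, a form described in macaques, was at 1653 ± 371 TPM in liver and fell by 5.72. Of 35 conjugation and detoxification genes, 31 fell, 1 rose and 3 did not pass, with a median of -3.72. ADH4, an alcohol dehydrogenase, fell by 6.64, AKR1C4, a steroid reductase, by 6.35 and GSTA1, a glutathione transferase of hepatocytes, by 5.85. The related GSTA4 rose by 1.68 and GSTP1, the form of many epithelia, did not pass, at 307 ± 330 and 332 ± 210 TPM. The PRSS, CELA, CYP2A, CYP2C, CYP3A, GSTA and globin genes have close relatives, and their single values are uncertain for the same reason as those of the amylases.

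Genes of lipid metabolism were the next group. Of 31 genes of fatty acid oxidation and ketone synthesis, 27 fell and 4 did not pass, with a median of -2.27, and all 31 fell without animal 4. FABP1, the liver fatty acid binding protein, fell by 5.74. CPT1A, which admits fatty acids to mitochondria, did not pass (-0.73, adjusted p = 0.225), and its highest pancreas value, 6.94 TPM, was in animal 4. Without that animal it fell by 1.25 (adjusted p = 0.00224). Of 28 genes of cholesterol and fatty acid synthesis, 12 fell and 16 did not pass, where 24.4% of all genes tested fell. Without animal 4, 23 fell and 1 rose, where 47.4% of all genes fell. With trimmed-mean scaling and without animal 4, 13 fell and 1 rose, where 22.8% of all genes fell. ACLY, which supplies acetyl units for lipid synthesis, was at 15.7 ± 6.9 TPM in pancreas against 8.01 ± 2.68 TPM in liver, higher in 6 of 6 animals, and did not pass (0.85, adjusted p = 0.088), but did without animal 4 (0.87, adjusted p = 0.0425). THRSP, a lipogenic gene of fat and liver, was at 3066 TPM in the pancreas of animal 4 and 8.38 to 536 TPM in the others.

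Of 23 iron and hepatokine genes, 18 fell and 5 did not pass, with a median of -4.23. HAMP, hepcidin, the hormone that limits iron export, was at 9.51, 14.5 and 21.7 TPM in pancreas and 654, 1447 and 3629 TPM in liver (-6.52, SE 0.39, limma adjusted p = 2.52e-07). The chemotactic factor LECT2 fell by 6.53, as did IGFBP1, which binds insulin-like growth factors (-6.27), and IGF2 (-4.11). FGF21, a metabolic hormone made in both organs, did not pass, at 19.9 ± 17 and 22.5 ± 21.8 TPM.

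The transcription factors of hepatocytes fell in 20 of 22 cases, with a median of -2.45. CREB3L3, which controls acute phase and lipid genes, was at 0.662, 0.941 and 1.15 TPM in pancreas and 85.2, 139 and 156 TPM in liver (-6.04, SE 0.30, limma adjusted p = 1.43e-07). The xenobiotic receptors NR1I3 and NR1I2 fell by 4.87 and 4.51, and HNF4A, a master factor of hepatocytes, by 4.13. ATF5, at the highest level of the list in liver among those named, fell by 3.77. FOXA2, a factor of endoderm that both organs use, was at 13.6 ± 9.34 and 26.6 ± 11.1 TPM and did not pass (-1.27, adjusted p = 0.0671), nor did NR1D1, of the circadian clock (-0.66). FOXA2 passed without animal 5 (adjusted p = 0.0384) and NR1D1 without animal 4 (0.00646).

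**Figure D4:**
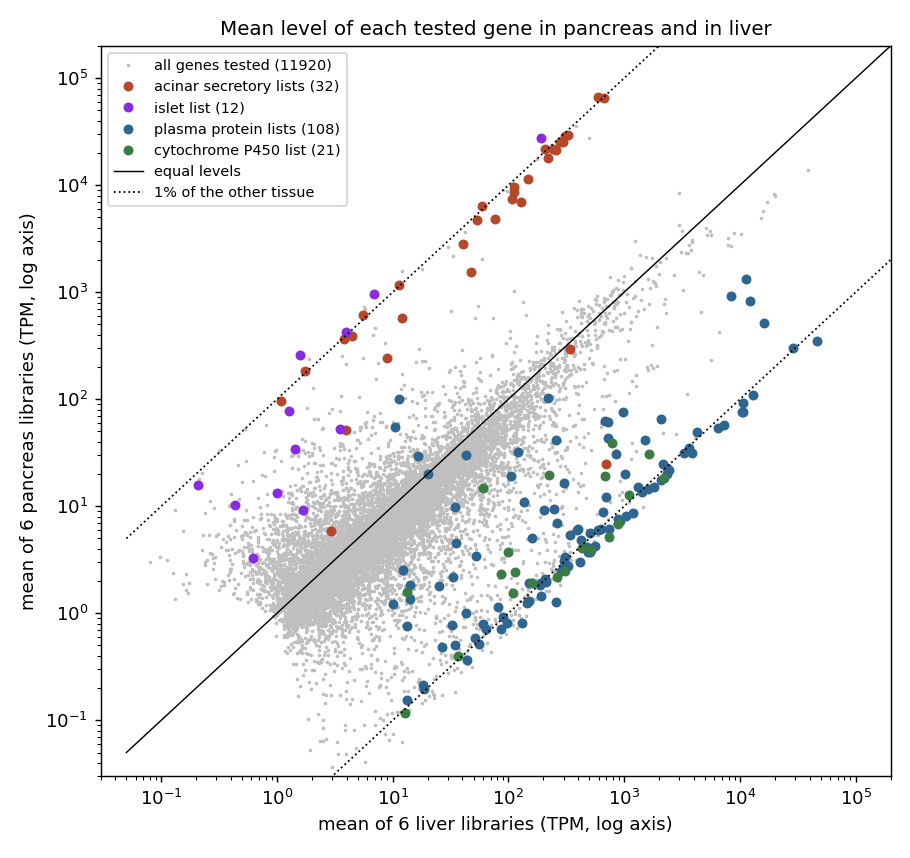
Mean of 6 pancreas libraries against mean of 6 liver libraries in TPM, both axes logarithmic, for 11920 of the genes tested (1 gene with a mean of 0 in an organ is not drawn). Many acinar, plasma protein and cytochrome P450 genes lie near the dotted lines, where the level in the lower organ is 1% of that in the higher one, and the islet genes are more scattered (median 2.90%).

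For many genes typical of 1 organ, the level in the other organ was near 1% of it. Of 108 tested genes of the plasma protein lists, 69 had a mean in pancreas of 0.5 to 2% of that in liver and 1 was below (FCN2, 0.494%), across liver means of 10.1 to 45896 TPM, and the other 38 were above. The median share was 1.14%, and 1.02% without animal 4. Of 32 tested acinar genes, 25 had a mean in liver within the same band of their pancreas level and 0 were below it, with a median of 1.16%. The 12 tested islet genes had a median of 2.90%, with 6 in the band and 0 below it, and without animal 4, 3 in it and 3 below. Over all genes of at least 100 TPM in the higher organ the median share was 63.1% for those higher in pancreas and 33.9% for those higher in liver. Among all genes of at least 1000 TPM in the higher organ, the lowest share was 0.689% (INS, liver over pancreas) on the pancreas side and 0.683% (AOC1) on the liver side. Salivary secretory genes, which neither organ is known for, were detected in both. The 16 members of that list summed to 5088 to 8687 TPM in pancreas and 7727 to 12660 TPM in liver, and SMR3B was at 1333 to 3371 TPM and 2670 to 4269 TPM. Their part in the low levels of the other genes was not tested. The largest fold changes lie near this share, so levels of around 1% of the other organ are not read as expression here. Nor are the levels of the salivary genes, which were not set against those in the salivary glands here.

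Genes of general cell function were less divided in TPM as deposited. Of 76 ribosomal protein genes 0 passed in limma as deposited (median 0.12), with 3 higher at an unadjusted p below 0.05. With trimmed-mean scaling 42 of the 76 rose (median 0.68), where 15.9% of all genes tested rose. With the scaling and without animal 4, 41 rose, where 18.2% of all genes did. Quantile normalization gave 55 higher and 0 lower. Without animal 4 alone, 1 rose and 9 fell (median -0.18), where 47.4% of all genes fell. Without animal 5, 1 rose. The ribosomal sum was 131014 TPM in the pancreas of animal 4, 40034 to 62940 TPM in the other 5 and 44729 to 58463 TPM in liver. Of 20 tRNA synthetases 0 passed in limma as deposited, with 3 higher at an unadjusted p below 0.05, and 7 rose with the scaling. Without animal 4, 2 of the synthetases rose and 1 fell. Among genes of at least 100 TPM in both organs, MYL6, a myosin light chain, GPX3, a secreted glutathione peroxidase, TMEM258, of the oligosaccharyltransferase complex, RPS24, OAZ1, a regulator of polyamine synthesis, and S100A11 had the smallest fold changes, between -0.02 and 0.02. With the scaling all 6 moved to between 0.53 and 0.57, so like level holds only for TPM as deposited. MYL6 was at 198 to 574 TPM in the pancreas of 5 animals and 2589 TPM in that of animal 4, against 361 to 512 TPM in liver.

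Of 13 genes encoded by the mitochondrial genome, 12 fell and 1 did not pass, with a median of -1.59, and the 12 also fell with the scaling (median -1.03). Their sum took 3.47 to 8.70% of TPM in the pancreas of animals 1, 2, 3, 5 and 6, 14.1% in animal 4 and 10.5 to 24.7% in liver. ND4, a subunit of respiratory complex I, was at 2616, 4161 and 10247 TPM in pancreas and 8577, 16027 and 20695 TPM in liver (-1.72, SE 0.33, limma adjusted p = 0.00233). ND3, of the same complex, was the gene that did not pass (-0.62, adjusted p = 0.167), and it passed without animal 4 (-0.69, adjusted p = 0.0251).

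Markers of resident non-epithelial cells were then compared. Of 12 macrophage and Kupffer cell markers, 10 fell, with a median of -2.39. CD14, an endotoxin receptor that hepatocytes make too, was at 3.43, 4.13 and 37.4 TPM in pancreas and 212, 294 and 391 TPM in liver (-5.24, SE 0.47, limma adjusted p = 6.26e-06). CD5L and MARCO, which mark tissue macrophages of the liver, fell too (-4.77 and -3.88). Of 10 markers of liver sinusoidal endothelium, the fenestrated scavenger lining of the liver, 7 fell, among them STAB2 (-3.08), OIT3 (-4.09) and DNASE1L3 (-4.09). In contrast, PLVAP, the diaphragm protein of fenestrated capillaries elsewhere, was at 19.1, 23 and 178 TPM in pancreas and 1.03, 2.3 and 4.14 TPM in liver, and rose by 3.51 (SE 0.50, limma adjusted p = 0.00024), or 2.91 without animal 4. Of 10 lymphocyte and plasma cell markers, 4 fell, where 24.4% of all genes tested fell. CD3D, of the T cell receptor complex, was at 1.96 ± 2.21 and 4.94 ± 2.12 TPM (-1.25). The call of CD3D was lost without animal 1, 5 or 6 (adjusted p of 0.077 to 0.113). Without animal 4, 8 of the 10 fell, where 47.4% of all genes tested fell, and without animal 1 only 1 marker did. Of 12 adipocyte markers, 0 rose and 1 fell, PCK1, which is described above among the glucose genes. At an unadjusted p below 0.05 in limma 1 was higher and 1 lower. Without animal 4, 1 rose and 4 fell, where 7.42% of all genes tested rose and 47.4% fell. FABP4, the fatty acid binding protein of fat cells, was at 12.9, 59.6 and 11548 TPM in pancreas, highest in animal 4 and next in animal 3 (1408 TPM), and 10.1 to 75.5 TPM in liver. Of 10 general endothelial markers 2 rose, of 15 stellate cell and fibroblast markers 1 rose, and of 9 skeletal muscle markers 0 passed in limma (1 higher at an unadjusted p below 0.05, and 1 rose without animal 6). Over all genes tested 6.38% rose. Without animal 4, 3 of the general endothelial markers rose and 3 fell, and 1 of the fibroblast markers rose and 3 fell. These falls are no larger a share than the 47.4% among all genes in that fit. Without animal 1 or 2, 0 fibroblast markers passed. With trimmed-mean scaling 4 general endothelial, 6 fibroblast and 2 muscle markers rose, where 15.9% of all genes tested rose. With the scaling and without animal 4, 4, 8 and 8 rose, where 18.2% of all genes did. The haemoglobin genes HBB and HBA did not pass with all animals (-1.71 and -2.28) and fell without animal 4 (-2.88 and -3.32, limma adjusted p = 0.00101 and 0.000169).

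**Figure D5:**
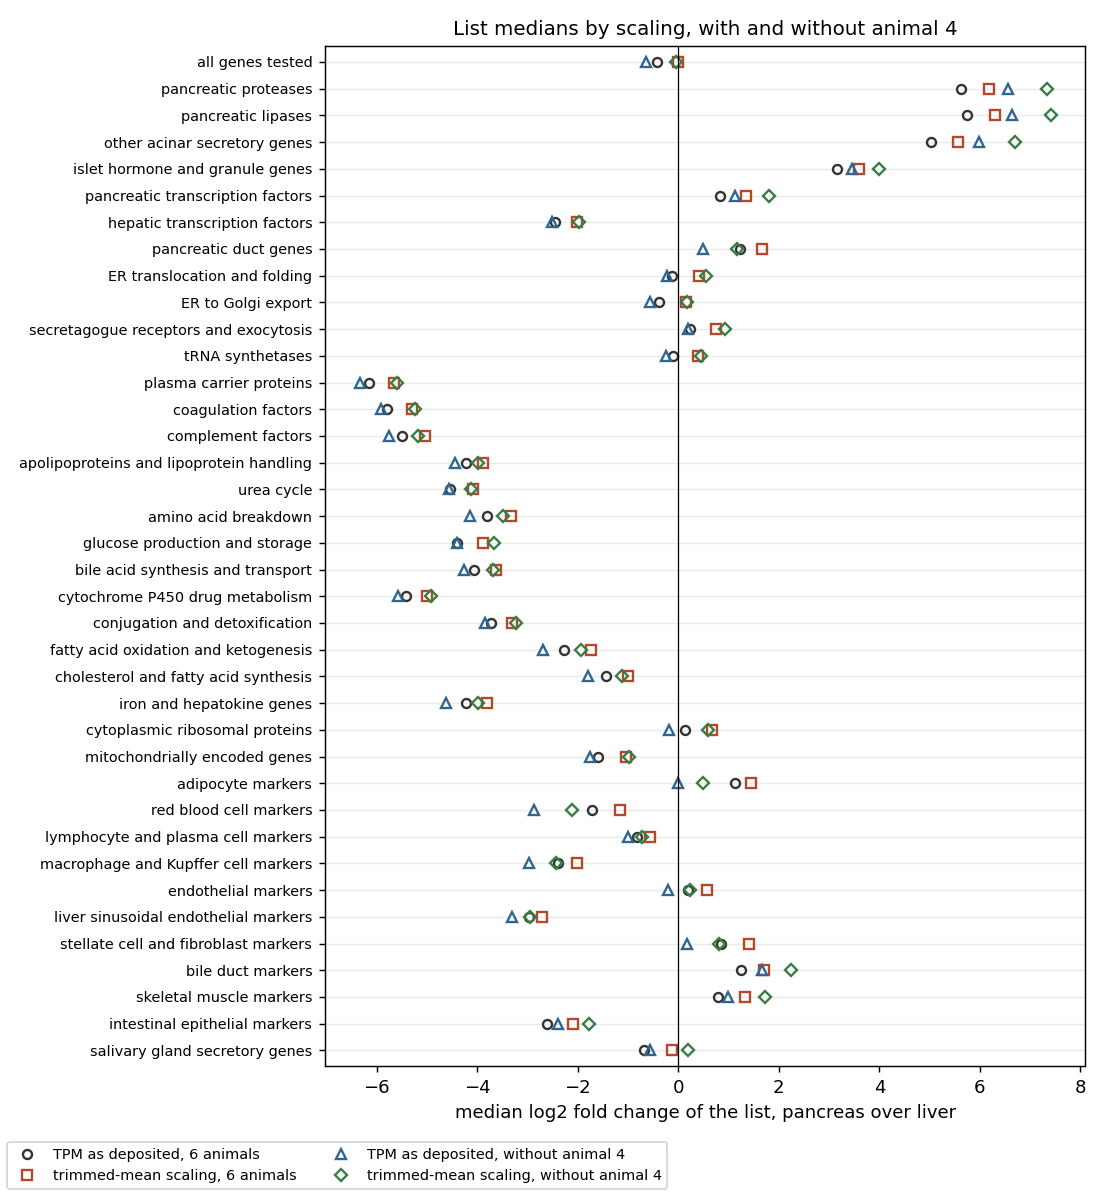
Median log2 fold change (pancreas over liver) of each gene list and of all genes tested, as deposited and with trimmed-mean scaling, with all 6 animals and without animal 4. The protease and lipase medians move from 5.62 and 5.74 to 7.34 and 7.41 when both changes are made, the plasma protein and cytochrome P450 medians stay at or below -3.89, and the ribosomal, endoplasmic reticulum, Golgi export, tRNA synthetase, endothelial, adipocyte and salivary medians change sign.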

How the data were processed

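Values are TPM as deposited by the authors, 1 column per library, each with the same total. The submitters' processing notes name kallisto, which the name of the table also gives, beside FastQC, MultiQC, cutadapt, HISAT2, SAMtools, featureCounts and DESeq2, with no roles. Versions, build, annotation and the handling of reads that match several copies are not given in the sources used here. Read depth is unknown, since TPM keeps none, so no counting interval was set. All 30 columns matched 1 sample each.

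The 11921 of 21292 genes that reached 1 TPM in 6 or more of the 12 libraries entered a limma model (version 3.58.1, R 4.3.3) of log2(TPM + 1), with tissue and animal as terms, a trend in the variance and two-sided Benjamini-Hochberg adjustment over all of them. The fit was tested on simulated data with 200 changed genes, independent noise in each library and no outlying library. It recovered 81% of the log2 changes of 2 and 96% of those of 4, and 4.84% of its calls were false. The data hold far more called genes and the library of animal 4, so these rates may not hold for them. Exact permutation tests of AMY2B, LOC114669773 and LOC713027 flipped the signs of within-animal differences. Trimmed-mean factors left out 30% of log ratios and 5% of mean levels at each end. Alternatives were other scalings, pseudocounts, filters, samples and variance models, and leaving out each animal.

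Pancreas and liver were paired because the labels give both from the same animal. The correlation of a pair's deviations from the tissue means averaged 0.15, from -0.20 to 0.43, against -0.03 between unmatched libraries. The labels give 1 piece per organ and animal. Differences between animals, between the parts sampled and between library preparations therefore cannot be told apart in the spread.

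Members and lists were chosen with earlier results of these data known. Genes named were the 12 largest rises and 12 largest falls among those of 100 TPM or more in the higher organ, same in sign in 6 of 6 animals. From each list came the 4 largest passing differences, the 2 highest levels and up to 4 members against the list's median. Label markers, amylases and the 6 genes of most like level were added. Some genes that these rules pick are not reported here. The other 47 of the 169 genes named were chosen after their values were seen: KLK1, PNLIPRP3, CLPSL1, GATM, RNASE1, REG1A, LOC114669773, LOC713027, PPY, PCSK1N, CPE, ABCC8, KCNJ11, SCG3, CHGA, CHGB, PTF1A, NR5A2, SLC4A4, CFTR, P4HB, YIF1A, SEC16A, RAB26, CCKAR, CHRM3, TTR, FETUB, TFPI, C7, FCN3, C5, APOE, ARG2, FBP1, ABCB11, CYP7A1, CYP3A4, GSTP1, CPT1A, ACLY, IGF2, FGF21, FOXA2, NR1D1, ND3 and STAB2. Names were matched to RefSeq symbols of assembly T2T-MMU8v2.0 (19177 of 21292, 90.1%). Promoter sequences were not analysed here.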

Additional observations from a re-analysis of the deposited data

Results flagged for a closer look

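The pancreas library of animal 4 stood far from the other 5 in 9 of 76 sets of 6 libraries, by Dixon's test of the gap to the nearest library on log2(summed TPM + 1). About 3.8 such sets would be expected if each passed 1 time in 20 independently. The sets share libraries and some genes, and the lists were chosen with earlier results known. The 9 sets therefore cannot be weighed against chance. On the log2 scale no other library was picked out. On the summed TPM itself 16 sets passed, 12 of them through the pancreas of animal 4, all on the high side, and 4 through another library. These were the islet genes (133430 TPM, next 12876 TPM) and the secretagogue and exocytosis genes (719 TPM, next 444 TPM) in the pancreas of animal 3, the red blood cell markers in the liver of animal 2 (3678 TPM, next 1618 TPM) and the muscle markers in the liver of animal 6 (597 TPM, next 154 TPM). This scale was added after the data were seen. The proteases of the pancreas of animal 4 summed to 3442 TPM (next lowest 157518 TPM), its lipases to 2007 TPM (97185 TPM), its other acinar secretory genes to 839 TPM (18134 TPM) and its pancreatic transcription factors to 160 TPM (1240 TPM). AMY2B and LOC114669773 together came to 559 TPM, against 12492 TPM in the next lowest. The same library was highest in red blood cell markers at 13988 TPM (next 474 TPM), in apolipoprotein genes at 10578 TPM (1824 TPM), in iron and hepatokine genes at 6170 TPM (1844 TPM) and in stellate cell and fibroblast markers at 5997 TPM (452 TPM). Which of these moved with which was not tested.

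In 3 of 219 comparisons of the sexes, all 4 females and both males went opposite ways between the organs, and the difference was not tested. The skeletal muscle markers had a mean log2 difference, pancreas minus liver, of 1.71 in females and -0.38 in males, 2.08 apart. For the skeletal actin ACTA1 the means were 1.58 and -0.28, 1.86 apart. ACTA1 was at 20.9 TPM in the pancreas and 20.8 TPM in the liver of animal 4. In animal 5 it was at 18.18 and 18.21 TPM, so the direction in these animals rests on very small gaps. Its mean was 53.7 TPM in pancreas and 34.4 TPM in liver, against 4686 TPM in parotid. For SARS, the seryl-tRNA synthetase, they were 0.78 and -0.16, 0.94 apart.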

How the results depend on the processing

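The count of 3664 passing genes lay between 3120 and 4883 under the other alternatives that kept all animals or combined scaling with leaving out animal 4. It was 2432 with a filter of 5 TPM, where 6833 genes were tested, and 2567 to 6539 when 1 animal was left out, the highest without animal 4. The share of passing genes that were higher in pancreas was 20.8%, and it moved to 44.8% with trimmed-mean scaling, 55.4% with quantile normalization and 44.4% with trimmed-mean scaling and without animal 4. Leaving out 1 animal gave 13.5 to 24.9%. The median spread between animals in pancreas was 0.638, 0.413 with trimmed-mean scaling, 0.412 without animal 4 and 0.317 with both.

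Without the animal block, 3924 genes passed, 0 of the 129 passing genes named were lost and KCNJ11 was gained. For AMY2B the difference without pairing stayed at 4.21 and the exact permutation p of 6 against 6 unpaired libraries was 0.00866, against 0.0625 with pairing. Leaving out 1 animal gave 3.61 to 5.09.

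Of the 129 named genes that passed, 118 passed under every alternative in which they were tested, and 11 lost the call under at least one. Among the named genes 6 changes of sign with a call on either side occurred. VAMP8 was at 0.19 with quantile normalization, and FGF21 at 1.28 with trimmed-mean scaling and without animal 4. With quantile normalization MYL6 was at 1.06, TMEM258 at 1.05, RPS24 at 0.68 and OAZ1 at 0.95. In each of these the cause was not tested. Read depth, unknown here, limits genes near 1 TPM.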

Other observations

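Of 10 intestinal epithelial markers 3 were tested, and 2 of them fell in pancreas. ANPEP, the membrane aminopeptidase that intestine and bile canaliculi share, was at 3.64, 21.3 and 38.6 TPM in pancreas (lowest, median, highest) and at 75.1, 195 and 365 TPM in liver, with no overlap, and it fell by 3.13 on the log2 scale (SE 0.43, limma adjusted p = 0.000185). VIL1, villin, which bundles actin in microvilli, was at 0.361, 2.13 and 2.77 TPM in pancreas and 4.95, 15.3 and 33.1 TPM in liver (-2.60, SE 0.41, limma adjusted p = 0.000514). Both were lowest in the pancreas of animal 4.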
